A study of Mus musculus with 53 samples.

Results

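The 10 genes followed here are used by enteroendocrine cells to make and store their hormones. They were Chga, Chgb, Gcg, Pyy, Cck, Sct, Gip, Tph1, Neurod1 and Insl5. They were chosen by symbol, with each Ensembl identifier of the count table matched to a gene symbol, and all 10 were found among the 55421 genes of the table. Enteroendocrine cells are scattered singly through the lining of the gut, sense the gut contents and release peptide hormones or serotonin into the tissue and the blood. They arise from crypt progenitors that switch on Neurog3 and then Neurod1, and different cells make different mixtures of hormones. Enterochromaffin cells make serotonin, L cells make the products of Gcg together with peptide YY and, in the colon, insulin-like peptide 5, and K and I cells of the upper small intestine make GIP and cholecystokinin.

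Among the members, Chga and Chgb encode chromogranins, the acidic proteins packed with hormone in dense-core granules. Gcg encodes proglucagon, from which L cells cut the glucagon-like peptides. Pyy encodes peptide YY, which slows transit and curbs appetite. Cck encodes cholecystokinin, which empties the gallbladder, and Sct encodes secretin, which stimulates bicarbonate release from the pancreas. Gip encodes the glucose-dependent insulinotropic polypeptide. Tph1 encodes tryptophan hydroxylase, the rate-limiting enzyme of serotonin synthesis outside the nervous system. Neurod1 is a transcription factor of the differentiating cells, and Insl5 encodes a peptide of colonic L cells.

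The 53 RNA libraries came from mice that all carried the VilCreER transgene, a tamoxifen-inducible Cre driven by the villin promoter in the intestinal epithelium, so that controls (WT) carried Cre as well and alleles were recombined in epithelium only. Proximal colon was represented by BA tumours (VilCreER+ BrafV600E/+ Alk5fl/fl, 4 primary tumours) with WT tissue (3), and by tissue taken 30 days after induction from WT (4), A (VilCreER+ Alk5fl/fl, 4), A given sulindac in drinking water at 0.4 g/L for 14 days (4), BA (5) and BA given antibiotics (5). The antibiotic water held ampicillin, neomycin trisulphate and metronidazole at 1 g/L each and vancomycin at 500 mg/L. Small intestine was represented by tissue 4 days after induction from APCfl/fl (10) and WT (6) mice, and by primary tumours of Apcfl/+ mice (5) with WT tissue (3). Alk5 is another name of Tgfbr1, the type I receptor of TGFβ, and BrafV600E is the activated form of the kinase. The Apcfl/+ tumours and their WT were on inbred C57BL6/J (N9), the rest on a mixed C57BL/6J background (N6). The labels gave no age, and the tumours and their WT tissue carried no day. The libraries were made from pieces of tissue or tumour, not from sorted cells, so fewer cells of a type and less RNA per cell cannot be told apart.

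In GRCm38 the gene models lay at chr12:102554969-102565028 (Chga, plus strand), chr2:132781278-132795079 (Chgb, plus strand), chr2:62474530-62483650 (Gcg, minus strand), chr11:102106676-102107832 (Pyy, minus strand), chr9:121489824-121495694 (Cck, minus strand), chr7:141278330-141279133 (Sct, minus strand), chr11:96024545-96030831 (Gip, plus strand), chr7:46644641-46672537 (Tph1, minus strand), chr2:79452521-79456751 (Neurod1, minus strand) and chr4:103017872-103026842 (Insl5, minus strand).

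The stretches of DNA just before the start sites of 5 members are shown, the 4 whose windows hold CAGATG and the 1 that holds TGACGTCA. Sequences are from RefSeq for GRCm38.p6, 250 bases before the RefSeq start, 5′ to 3′ on the gene's strand. These starts can differ from the gene models above. The stretch of Chgb lies inside its gene model, and that of Insl5 overlaps its gene model. Capitals mark CAGATG, an E-box of the kind bound by NEUROD1 and other bHLH factors, and TGACGTCA, the full cyclic AMP response element. The stretch of Gcg is chr2:62483654-62483903 (minus strand), that of Sct is chr7:141279134-141279383 (minus strand), that of Insl5 is chr4:103026729-103026978 (minus strand, 1 of 2 listed starts), that of Cck is chr9:121495695-121495944 (minus strand) and that of Chgb is chr2:132781392-132781641 (plus strand).
Gcg: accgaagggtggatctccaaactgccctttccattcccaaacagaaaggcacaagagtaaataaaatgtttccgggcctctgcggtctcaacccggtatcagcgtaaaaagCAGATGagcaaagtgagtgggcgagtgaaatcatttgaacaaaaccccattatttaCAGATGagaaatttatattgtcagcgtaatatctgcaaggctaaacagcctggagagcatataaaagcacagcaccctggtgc
Sct: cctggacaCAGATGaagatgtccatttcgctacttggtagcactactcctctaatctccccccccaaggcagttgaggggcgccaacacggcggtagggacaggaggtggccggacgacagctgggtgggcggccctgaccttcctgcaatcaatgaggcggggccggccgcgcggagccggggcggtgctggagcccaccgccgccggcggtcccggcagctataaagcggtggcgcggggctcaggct
Insl5: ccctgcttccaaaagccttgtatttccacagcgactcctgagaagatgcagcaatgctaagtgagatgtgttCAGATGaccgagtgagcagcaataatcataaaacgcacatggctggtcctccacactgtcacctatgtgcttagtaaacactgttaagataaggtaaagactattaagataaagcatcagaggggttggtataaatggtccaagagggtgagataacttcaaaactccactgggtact
Cck: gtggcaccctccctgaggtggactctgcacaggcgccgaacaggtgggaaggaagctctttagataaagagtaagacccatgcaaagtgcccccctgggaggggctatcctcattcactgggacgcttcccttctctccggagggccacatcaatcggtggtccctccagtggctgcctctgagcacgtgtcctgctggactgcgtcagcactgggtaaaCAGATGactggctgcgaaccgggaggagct
Chgb: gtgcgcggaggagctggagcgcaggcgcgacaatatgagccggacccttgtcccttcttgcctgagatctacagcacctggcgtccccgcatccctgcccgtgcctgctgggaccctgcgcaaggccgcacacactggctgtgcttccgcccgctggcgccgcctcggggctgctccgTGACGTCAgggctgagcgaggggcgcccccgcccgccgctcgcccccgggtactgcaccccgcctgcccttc

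Windows of 300 bases, which ran 50 bases past the start as well, were searched on both strands for 5 motifs. The 10 members had 13 windows. CAGATG lay in 4 of the 13 (Cck, Gcg, Insl5 and Sct), against 17.2% of the 32851 mouse windows. TGACGTCA lay in 1 of the 13, that of Chgb, against 1.79% of all windows. TATAAA was found in 5 of the 13, for Chga, Gcg, Sct and both starts of Insl5, against 13.6% of all. CACCTG was found in 4 of the 13, for Cck, Chga, Chgb and the other start of Insl5 (20.2% of all). CAGCTG was found in 4 of the 13 as well, for Chga, Chgb, Gip and Sct (16.3% of all). Of the 6 members that fell in the BA tumours, described below, Gcg, Sct and Insl5 hold CAGATG and Chga, Pyy and Neurod1 do not, while Cck holds it and did not pass the test there. A match is a description of letters, and the absence of all 5 from the windows of Pyy, Tph1 and Neurod1 says only that these letters are not there.

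Library totals ran from 516985 reads (APCfl/fl 1) to 32824795, with a median of 18356900, so that 3 reads, the limit that a count of 0 allows, stood at 0.163 CPM (reads scaled to the library total) in the median library. This limit covers counting error only. All adjusted p-values below are from edgeR's quasi-likelihood test on the counts, adjusted by Benjamini-Hochberg over every gene tested, and fold changes are log2 values ± SE. Genes are called at an adjusted p under 0.05.

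Several libraries stood apart. The library labelled Apcfl/+ tumour 2 went against its small intestinal label: its summed level of 7 small intestinal markers was 49.1 CPM, against 5734–10091 in the other Apcfl/+ tumours and 13543–21751 in WT small intestine, while 6 proximal colon markers summed to 406 CPM against 77.7–110.1 in the other tumours and 259.1–321.7 in WT small intestine. Its Car1, a carbonic anhydrase of colonic epithelium, stood at 196 CPM, against at most 0.399 in WT small intestine. BA tumour 2 had the highest small intestinal sum of the BA tumours (1424 CPM, the others 197–282) and the lowest proximal colon sum (874 CPM, the others 4270–5179), and held both Xist and Ddx3y, as APCfl/fl 5 did. These 2 sex-linked genes were chosen after their values were seen. Of the BA tumours 3 of 4 had Ddx3y over 10 CPM and of their WT 0 of 3; of the Apcfl/+ tumours 1 of 5 and of their WT 3 of 3; all 22 day 30 libraries did. Acinar genes of the pancreas were high in WT small intestine 1, Apcfl/+ tumour 5 and WT day 4 libraries 1 and 4. Of the targeted genes, Tgfbr1 was higher in the BA tumours (1.22 ± 0.25, adjusted p = 0.0156) and did not pass the test in A or BA tissue at day 30. These counts do not separate recombined from intact transcripts.

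The members divided by tissue. In WT colon at day 30, the mean level per kilobase of exon was highest for Sct (74.6 CPM per kb), then Chgb (39.2), Gcg (28.4), Chga (25.6), Pyy (22.2) and Tph1 (3.04). Cck (1.20), Neurod1 (0.624) and Insl5 (0.409) followed, and Gip had no read in any of the 4 libraries. In WT small intestine at day 4 the order was led by Gip (117 CPM per kb), Chgb (67.1), Sct (46.5), Chga (34.6) and Cck (31.2), with Gcg at 17.1 and Pyy at 1.31. Gip and Insl5 were thus each near the limit of detection in the tissue where the other was read: Insl5 had 0 or 1 read in each of the 9 WT small intestinal libraries, and Gip 0 or 1 in each of the 7 WT colon libraries.

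Neighbours in these orders often lay within the spread between mice. In CPM, Gcg at day 30 ran over 31.8–65.0 in the 4 WT libraries and Chga over 47.9–100.9, and both overlap once divided by exon length. WT library 1 at day 30 had the highest CPM of the 4 for Chga, Chgb, Gcg, Pyy, Tph1, Cck, Neurod1 and Insl5, and the lowest Sct. About 10.7% of the 36-base words of Neurod1 are shared with Cerkl, whose exons overlap it on the same strand, so its low counts are uncertain.

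**Figure D1:**
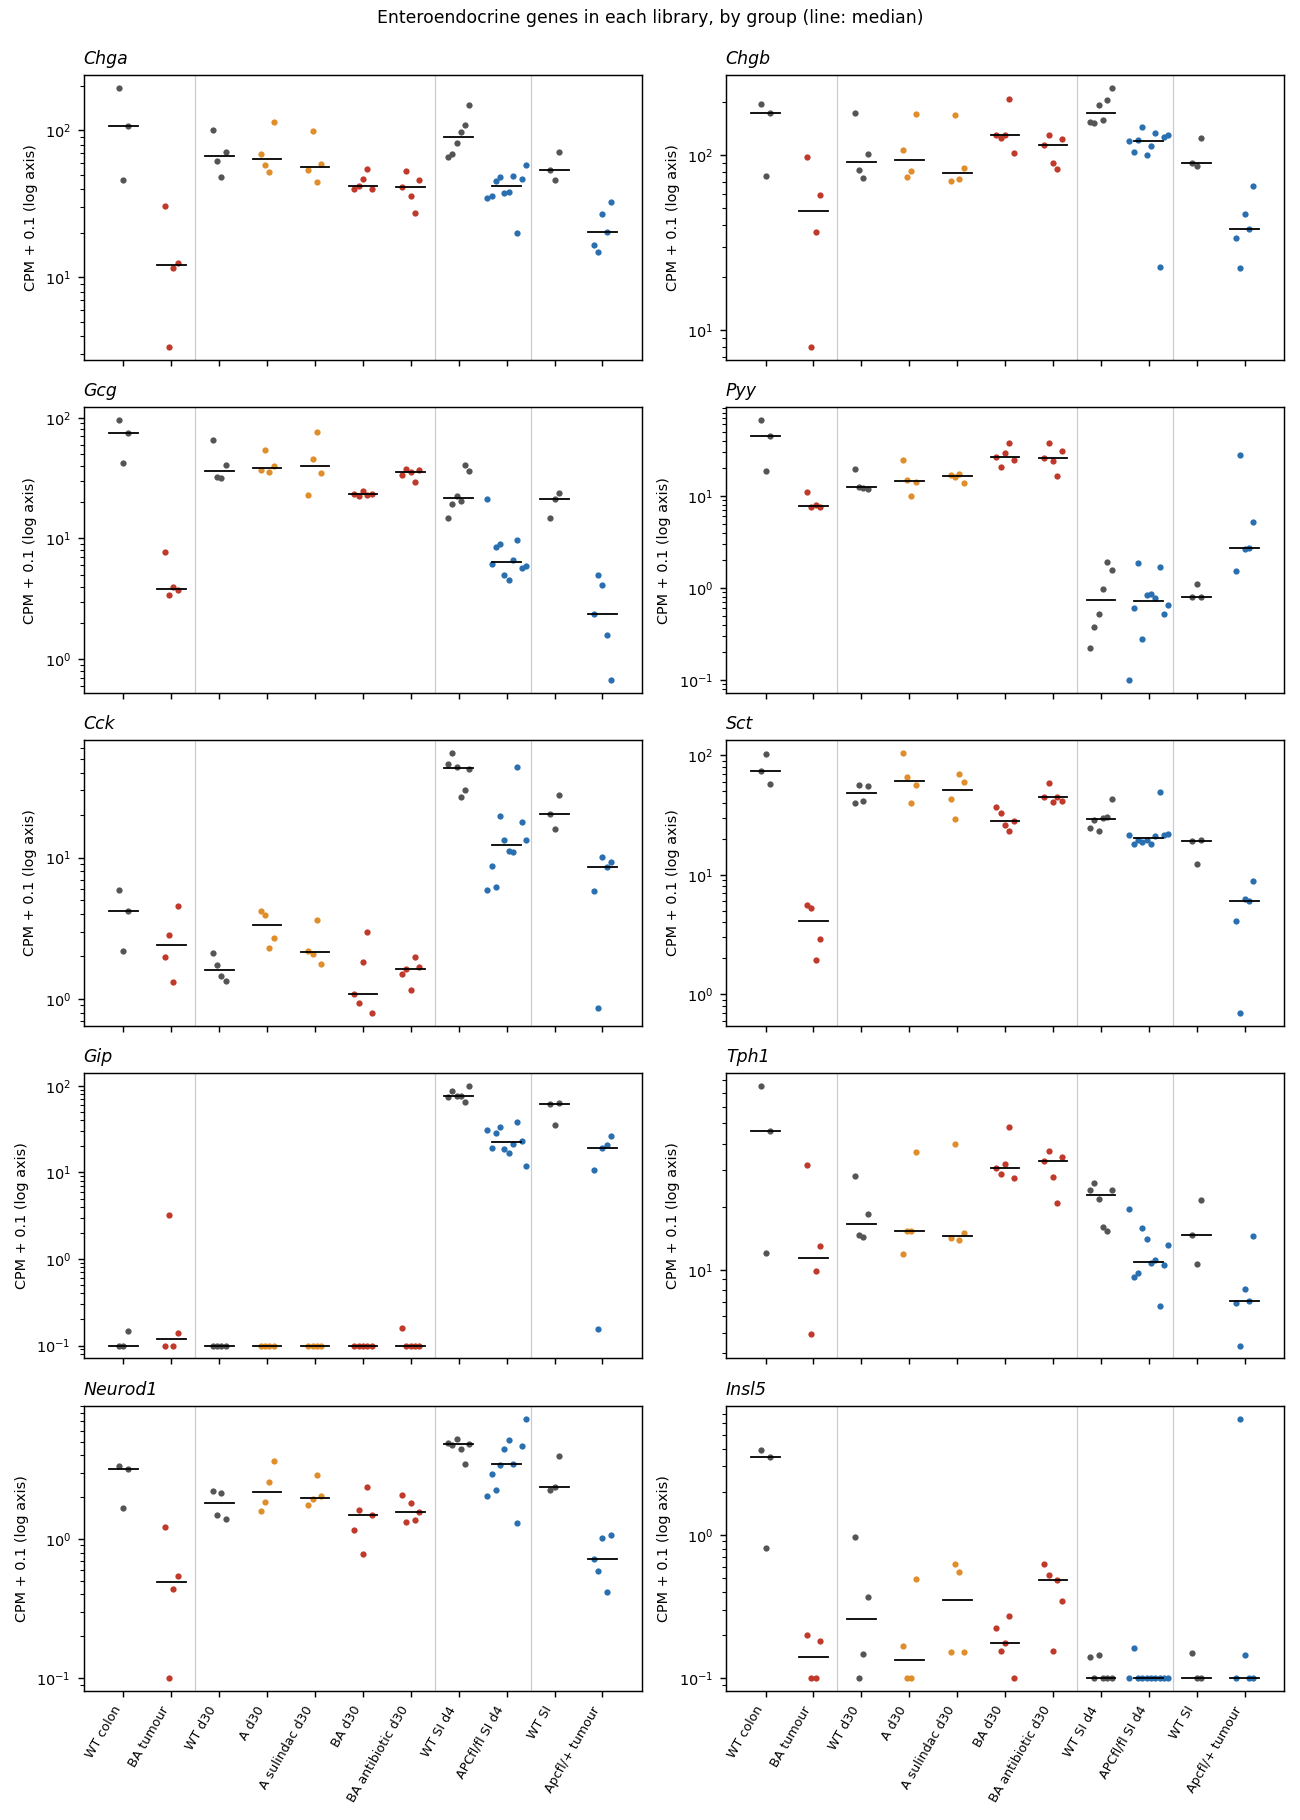
CPM plus 0.1 of each of the 10 genes in every library, by group (log scale on the vertical axis; a point is a library and a line the group median). Gip is near 0 in the colon groups apart from BA tumour 2, and Insl5 is near 0 in the small intestine apart from the library labelled Apcfl/+ tumour 2.

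The comparison of BA tumours with WT colon asks how the endpoint tumours differ from the tissue they grow in. In the BA tumours 6 of 9 members tested fell and 0 rose, where 13.2% of all 19188 genes were called and 5.71% were called lower. The median change of the 9 was -2.50 on the log2 scale, beside 0.03 over all genes tested. Gip was not tested, with 0 or 1 read in 6 of the 7 libraries. Insl5 and Neurod1 passed the filter on low counts through the WT libraries, where they were high. A call for either could hardly be a rise, so their falls add little to the count.

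The L cell hormones were among those that fell. Gcg stood at 95.1, 42.1 and 75.2 CPM in WT colon 1 to 3, and at 7.63, 3.33, 3.84 and 3.66 in BA tumours 1 to 4. The 4 tumours lay below every WT library, as for 11.8% of all genes, and the change was -3.95 ± 0.31 (adjusted p = 0.000457). Pyy stood at 66.3, 18.7 and 44.4 CPM in WT colon and at 10.8, 7.49, 7.86 and 7.43 in the tumours, which again did not overlap (-2.33 ± 0.35, adjusted p = 0.00454). Insl5 had 110, 13 and 73 reads in WT colon and 2, 0, 0 and 2 in the tumours, a fall of 5.52 ± 0.83 (adjusted p = 0.00455).

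Secretin fell furthest of the members with ample reads. Sct stood at 73.4, 102 and 57.5 CPM in WT colon and at 5.44, 5.16, 1.84 and 2.80 in the tumours (-4.34 ± 0.43, adjusted p = 0.00111). For Sct, unlike Gcg, Pyy and the chromogranins, WT library 2 was the highest of the 3 and not the lowest.

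The genes of enterochromaffin cells fell less evenly. Chga stood at 196, 45.6 and 108 CPM in WT colon and at 30.53, 3.24, 11.5 and 12.3 in the tumours (-3.09 ± 0.58, adjusted p = 0.0108). Chgb, at 195, 75.7 and 173 CPM against 96.7, 7.90, 36.4 and 58.8, overlapped between the groups through tumour 1 and WT 2 and did not pass the test (-1.66 ± 0.56, adjusted p = 0.0868). Tph1, at 75.4, 11.9 and 45.9 CPM against 31.6, 4.82, 9.75 and 12.9, did not pass either (-1.66 ± 0.59, adjusted p = 0.0983). DESeq2 called both Chgb (adjusted p = 0.0228) and Tph1 (adjusted p = 0.0310). Neurod1 fell from 95, 29 and 67 reads to 22, 0, 6 and 11 (-2.50 ± 0.67, adjusted p = 0.0409), and Cck, at 2.07–5.77 CPM against 1.23–4.47, did not pass the test (-0.56 ± 0.51, adjusted p = 0.524).

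Tumour 2, whose regional markers stood apart, was the lowest of the 4 for Chga, Chgb, Gcg, Neurod1 and Tph1 and held 38 reads of Gip where the other BA tumours held 0, 0 and 1. Without it the same 6 members passed the test and Chgb passed as well (-1.34, adjusted p = 0.0374). Without WT colon 1, Chga no longer passed (-2.57, adjusted p = 0.0551). Neurod1 lost its call without any 1 of BA tumours 3 and 4 and WT colon 1, 2 and 3 (adjusted p from 0.0566 to 0.146).

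The WT colon libraries all lacked Ddx3y. With sex as a term, a fit added after the data were seen in which tumour 1 alone is compared with WT of its own sex, Gcg still passed (-3.48, adjusted p = 0.0253). Sct (-4.13, adjusted p = 0.0646), Pyy (-2.25, adjusted p = 0.121), Insl5 (-4.86, adjusted p = 0.123), Chga (-2.19, adjusted p = 0.200) and Neurod1 (-1.52, adjusted p = 0.345) kept their direction without passing. The 10 epithelial markers summed to 11919–17727 CPM in the tumours and 14016–16564 in WT, with 1 of 10 higher, 0 lower and a median change of -0.12. Immune markers were higher (6 of 8, summed 522–1094 CPM against 256–286), as were 2 of 6 stromal markers, and 3 of 8 muscle markers were lower. Of the proximal colon markers 3 of 6 were lower (median -2.41, summed 874–5179 CPM against 15774–26731), and without tumour 2 it was 4 of 6 (median -2.14). None of 7 tuft markers (median -1.18) and 8 goblet markers (median -0.83) was called. Of 9 enteric neuron markers 1 was lower (median -1.54, summed 16.9–57.3 CPM against 49.1–172.3), and 0 without tumour 2 (median -1.39). Of 4 enteric glia markers 1 was lower (median -0.77). The part of these lists in the change of the hormone genes was not tested.

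Other genes of these cells were counted from lists in the same comparison. Of 14 transcription factors tested 3 fell and 0 rose: Myt1 (-2.31), Isl1 (-2.26) and Insm1 (-1.90), all factors of endocrine differentiation. Of 12 genes for prohormone processing and granules 3 fell, namely the convertase Pcsk1 (-2.03), its inhibitor Pcsk1n (-3.09) and Vwa5b2 (-1.80). Neurotensin (Nts, -4.59) and neuromedin U (Nmu, -3.84) fell among 7 further gut peptides. Of 8 sensors 1 fell, the somatostatin receptor Sstr5 (-3.36), and of 8 hormone receptors 4 fell, among them Npy2r (-2.82), a receptor of peptide YY, and Cckar (-2.79), a receptor of cholecystokinin. In the serotonin pathway Maoa (-2.39), Qdpr (-1.51) and Ddc (-1.14) fell while Gch1 (1.14), which makes the cofactor of TPH1, rose. The median changes of these lists lay between -1.51 and -0.87. The summed levels of the granule genes (204–448 CPM against 306–523 in WT) and of the sensors (69.5–83.5 CPM against 33.2–108.4) overlapped between the groups. Without tumour 2 the genes named here kept their direction and their calls, except Vwa5b2 (-1.85, adjusted p = 0.0515).

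**Figure D2:**
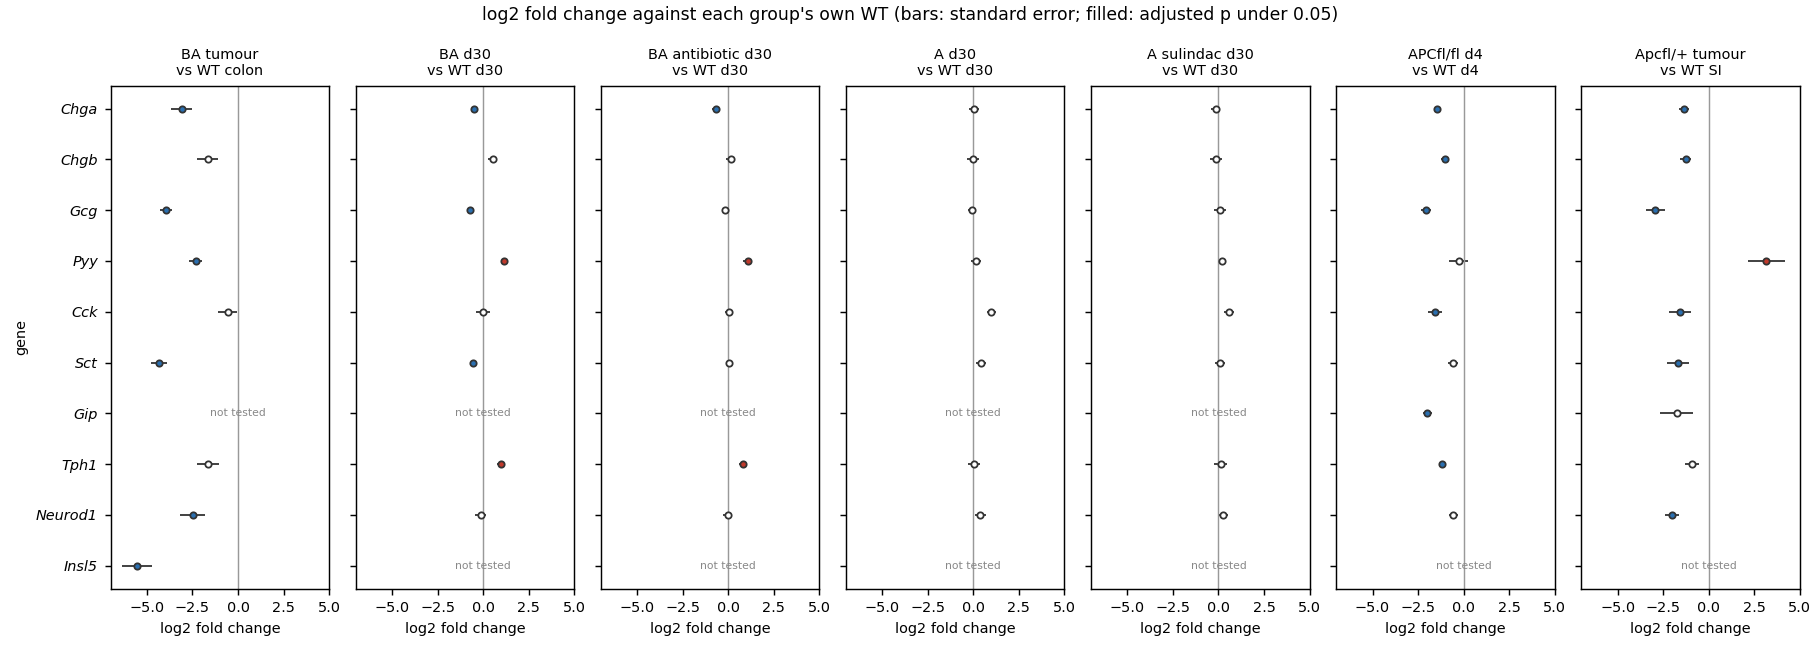
Log2 fold change of the tested members against WT in each of the 7 comparisons with WT (points; bars are ± SE; filled points have an adjusted p under 0.05, blue lower and red higher). The largest falls are in the BA tumours, and Pyy is above 0 in BA tissue at day 30 and in the Apcfl/+ tumours and below 0 in the BA tumours.

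At day 30, BA tissue showed a different arrangement. Of 8 members tested 2 rose and 3 fell against WT, which is 5 of 8 where 55.1% of all 17471 genes were called (25.8% higher, 29.3% lower). A share of this size is near the background, so the count itself is no result about the members. The split between them, with Pyy and Tph1 higher and Gcg, Sct and Chga lower in the same libraries, is given as a description. The number in each direction is not far from the background either.

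Pyy stood at 19.6, 12.4, 12.1 and 11.7 CPM in WT 1 to 4 and at 26.3, 20.7, 28.9, 37.8 and 24.7 in BA 1 to 5. All 5 BA libraries lay above all 4 WT, as for 14.0% of all genes (1.14 ± 0.18, adjusted p = 0.000334). Tph1 stood at 27.9, 14.5, 14.3 and 18.4 CPM in WT and at 30.37, 28.6, 31.9, 47.9 and 27.4 in BA. The groups met only at WT 1 and BA 5, and Tph1 rose by 0.98 ± 0.21 (adjusted p = 0.0019).

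Gcg and Sct went the other way. Gcg stood at 65.0, 32.5, 31.8 and 40.1 CPM in WT and in a narrow band of 23.4, 22.4, 24.8, 22.6 and 23.4 in BA (-0.70 ± 0.17, adjusted p = 0.00475). Sct stood at 39.7, 56.1, 41.0 and 55.6 CPM in WT and at 37.1, 32.9, 26.0, 23.2 and 28.2 in BA (-0.55 ± 0.15, adjusted p = 0.00987). Neither gene overlapped between the groups, as for 32.0% of all genes in this direction. Chga fell less, from 100.9, 61.8, 47.9 and 71.3 CPM to 39.6, 41.6, 46.5, 54.3 and 39.8 (-0.51 ± 0.17, adjusted p = 0.0229), and lost its call without BA 1, 2 or 5 or WT 1 (adjusted p from 0.0508 to 0.0674).

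Chgb, at 173.6, 81.4, 74.2 and 100.7 CPM in WT and 130.3, 125.6, 129.7, 207.5 and 102.6 in BA, did not pass the test (0.53 ± 0.24, adjusted p = 0.0824). Without WT 1 it passed (0.84, adjusted p = 0.00418). Cck (0.01 ± 0.38) and Neurod1 (-0.14 ± 0.30) did not pass, Gip had no read in the 9 libraries, and Insl5, with 16, 0, 1 and 5 reads in WT and 2, 1, 1, 3 and 0 in BA, was too low to be tested.

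The make-up of the tissue moved with these changes. In BA at day 30 the epithelial markers rose in 9 of 10 cases (median 0.77, summed 24691–27518 CPM against 13434–16193), 10 of 10 enteric neuron markers fell (median -1.65, summed 17.3–47.7 CPM against 47.8–120.5), 4 of 4 enteric glia markers fell, 6 of 8 muscle markers fell and 5 of 6 stromal markers fell. The part of these shifts in the members' values was not tested. Relative to an epithelial median of 0.77, Pyy was the member furthest above and Gcg the one furthest below, all values being log2 changes.

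Around the members, Gch1, which makes the tetrahydrobiopterin used by TPH1, rose by 2.44 ± 0.17 (87.7–113 CPM against 15.2–28.1), and the serotonin transporter Slc6a4 fell by 2.50 ± 0.16 (0.528–0.680 CPM against 3.86–4.20). In all 5 of 8 genes of the serotonin pathway fell and 1 rose. Of 6 sensors 2 rose, the fatty acid receptor Ffar4 (2.17) and Lpar5 (0.69), and 2 fell, Cnr1 (-1.61) and Ffar3 (-0.75). Higher too were amylin (Iapp, 2.00), 1 of 7 further peptides, and Pax6 (1.45), 1 of 11 transcription factors, while Nmu (-3.62) and the factors Myt1 (-1.54) and Hmgn3 (-0.90) fell. Of 12 prohormone processing and granule genes 7 fell and 2 rose, with Pcsk2 (-1.81), Pcsk1n (-1.32) and Pcsk1 (-1.31) lower and the granin Scg2 (0.78) and the amidating enzyme Pam (0.50) higher. Of 7 hormone receptors 5 fell, led by Htr4 (-1.81) and Htr3a (-1.58), receptors of serotonin that neurons also carry.

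**Figure D3:**
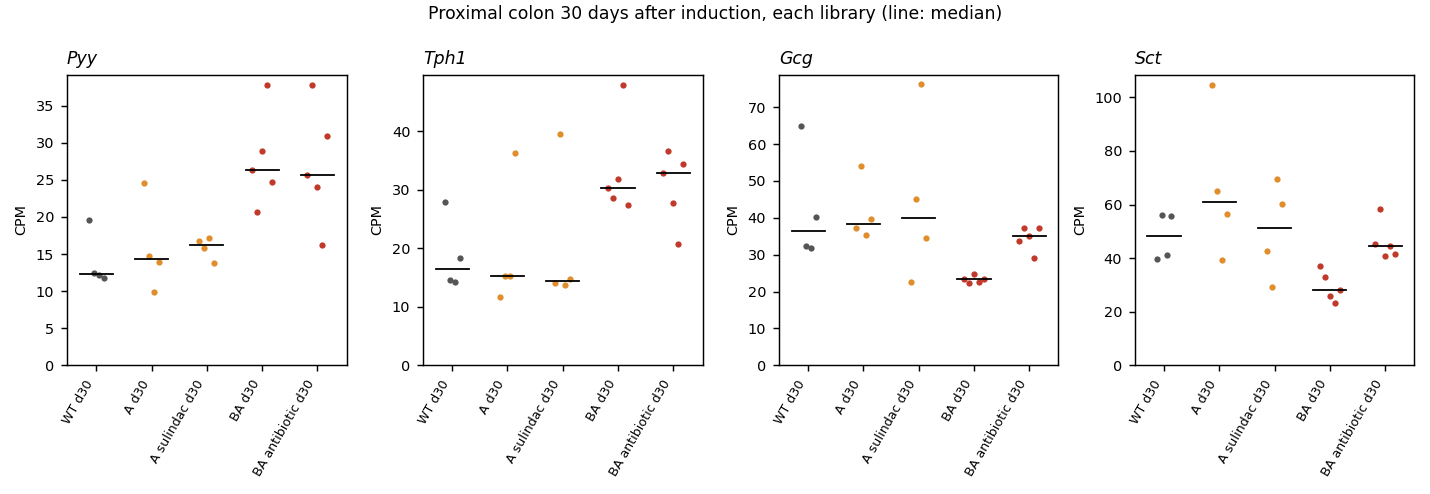
CPM of Pyy, Tph1, Gcg and Sct in each day 30 library of the proximal colon, by group (a point is a library, a line the group median). BA libraries lie above WT for Pyy and below WT for Gcg and Sct, and antibiotic-treated BA libraries lie above untreated BA for Gcg and Sct.

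Loss of Alk5 alone left no member past the test. Against the same 4 WT libraries, 0 of 8 members passed in A tissue, where 25 of 17713 genes (0.141%) were called. At an unadjusted p under 0.05 the test gave 1717 genes, 1 of them a member, and DESeq2 called 136 genes and 0 members. That member was Cck, at 2.01, 1.65, 1.36 and 1.24 CPM in WT and 4.12, 3.86, 2.21 and 2.62 in A. The groups did not overlap, as for 4.08% of all genes in this direction, and the change of 1.00 ± 0.27 had an adjusted p of 0.380. Pyy stood at 24.6, 14.7, 9.89 and 13.9 CPM in A (0.15 ± 0.28) and Tph1 at 11.7, 15.2, 15.2 and 36.3 (0.02 ± 0.33). Gcg (-0.07 ± 0.22), Chga (0.03 ± 0.27) and Sct (0.44 ± 0.28) did not pass either.

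Adding BrafV600E to Alk5 loss was then compared directly. In BA against A, 4 of 8 members passed, 2 in each direction, where 45.3% of 17128 genes were called. That share is near the background, so the count itself is no result about the members. Pyy (1.03 ± 0.25, adjusted p = 0.00558) and Tph1 (0.98 ± 0.30, adjusted p = 0.0191) were higher in BA, and Gcg (-0.60 ± 0.11, adjusted p = 0.00157) and Sct (-0.94 ± 0.24, adjusted p = 0.00849) were lower. Gcg and Sct did not overlap between A and BA, as for 29.2% of all genes in this direction, while Pyy met at A 1 and Tph1 at A 4. Chgb did not pass (0.58, adjusted p = 0.0820), but did without A 4 (0.91, adjusted p = 0.00848) and with DESeq2 (adjusted p = 0.0441). Of the epithelial markers 9 of 10 were higher in BA than in A and 1 was lower (median 0.79), and 8 of 9 enteric neuron markers were lower. The part of these shifts in the members' values was not tested.

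Sulindac, an inhibitor of cyclooxygenases, left no member past the test in A mice. Against WT, 0 of 8 members and 9 of 17742 genes (0.0507%) were called, with 1607 genes and 0 members at an unadjusted p under 0.05. DESeq2 called 110 genes and 0 members. Against untreated A, 0 of 8 members and 0 of 17568 genes (0.00%) were called, with 460 genes and 0 members at an unadjusted p under 0.05, and DESeq2 called 5 genes and 0 members. Gcg in sulindac-treated A ran over 22.7, 45.1, 76.2 and 34.5 CPM, a spread wider than in any other day 30 group. Sulindac library 2 had 169.2 CPM of Chgb, 98.8 of Chga and 39.6 of Tph1, well above the other 3 libraries (71.1–84.2, 44.5–59.0 and 13.8–14.8). The same mouse was not the highest for Gcg, Pyy or Sct.

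Antibiotics in BA mice left Pyy and Tph1 above WT. In antibiotic-treated BA, Pyy stood at 25.6, 37.8, 24.0, 16.2 and 30.8 CPM and Tph1 at 32.9, 36.6, 27.7, 20.8 and 34.4. Against WT 3 of 8 members passed, where 39.6% of 17569 genes were called: Pyy (1.07 ± 0.25, adjusted p = 0.00696) and Tph1 (0.82 ± 0.23, adjusted p = 0.0157) rose, and Chga, at 27.3–52.5 CPM, fell (-0.68 ± 0.23, adjusted p = 0.0375). Tph1 lost its call without WT 3 (0.70, adjusted p = 0.0606), and Chga lost its call without antibiotic library 1, 4 or 5 or WT 1, 2 or 4 (adjusted p from 0.0520 to 0.111). Gcg (-0.18 ± 0.19) and Sct (0.06 ± 0.16) did not pass against WT. The share of 3 of 8 is near the background and is no result about the members. Epithelial markers were higher too, in 9 of 10 cases (median 0.81), and 2 of 10 enteric neuron markers were lower. The part of this shift in Pyy and Tph1 was not tested.

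Set directly against untreated BA, the antibiotics changed 2 of 8 members, where 13.0% of 16680 genes were called and 4.53% were called higher. Gcg, at 33.7, 37.3, 35.2, 29.05 and 37.1 CPM with antibiotics, lay above all 5 untreated BA libraries (0.51 ± 0.08, adjusted p = 0.0027). Sct, at 45.1, 58.3, 40.8, 44.7 and 41.5 CPM, did so too (0.60 ± 0.15, adjusted p = 0.0236). Such separation upwards was seen for 6.21% of all genes. Pyy (-0.08 ± 0.22) and Tph1 (-0.17 ± 0.18) did not pass. Sct lost its call without untreated BA library 3, 4 or 5 (adjusted p from 0.0516 to 0.0567). Antibiotic library 3 had stromal markers at 6051 CPM in sum (the others 800–1241), and without it Gcg (0.52, adjusted p = 0.0034) and Sct (0.65, adjusted p = 0.0145) passed.

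In the same comparison the serotonin pathway split, with 3 of 8 genes higher and 3 lower. Slc6a4 (1.33), the irritant channel Trpa1 (1.09) and Qdpr (0.33) were higher with antibiotics, and Ddc (-0.56), Gch1 (-0.51) and Maoa (-0.42) were lower. Ffar4 (-1.03), Nts (-0.54) and Pax6 (-1.32) were also lower. Ffar4 and Pax6 had both risen in untreated BA against WT. None of 10 epithelial, 9 neuronal or 8 muscle markers was called between treated and untreated BA. Of the proximal colon markers 2 of 6 were lower with antibiotics, Cyp2c55 (-3.08) and Slc26a3 (-0.84), and the list summed to 16916–21957 CPM against 22669–25899. Of the small intestinal markers 1 of 5 was higher, Fabp2 (0.77), and that list summed to 2214–3230 CPM against 1397–1993. Their part in the rise of Gcg and Sct was not tested.

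Ratios of reads within a library do not depend on its depth. They are given as a description, with no test. Tph1 reads per Chga read ran over 0.235–0.299 in WT at day 30, 0.170–0.317 in A, 0.251–0.401 in A with sulindac, 0.686–0.882 in BA and 0.697–0.802 in BA with antibiotics. In WT colon the ratio was 0.261–0.425 and in BA tumours 0.845–1.49. The BA groups, at day 30 or in tumours, thus lay above every WT and A library on this measure. Chgb reads per Chga read behaved likewise, with 1.32–1.72 in WT at day 30, 2.58–3.82 in BA, 2.47–3.04 in BA with antibiotics, 0.995–1.66 in WT colon and 2.44–4.76 in BA tumours.

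Pyy reads per Gcg read ran over 0.292–0.383 in WT at day 30 and 0.923–1.67 in BA, with 0.558–1.01 in BA with antibiotics. In A the ratio was 0.273–0.662 and in A with sulindac 0.225–0.739, so that these 2 groups overlapped with antibiotic-treated BA. In WT colon the ratio was 0.444–0.697 and in BA tumours 1.42–2.25. Each of the 3 ratios stood above its own WT in BA tissue at day 30 and in the BA tumours. Such shifts were not limited to BA. Pyy reads per Gcg read were also higher in Apcfl/+ tumours (0.632–8.94) than in their WT (0.0300–0.0482). Chgb reads per Chga read had a median of 2.71 in APCfl/fl and 2.05 in their WT, with overlapping ranges. Tph1 reads per Chga read overlapped with WT in APCfl/fl and in Apcfl/+ tumours, as did Chgb reads per Chga read in Apcfl/+ tumours.

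**Figure D4:**
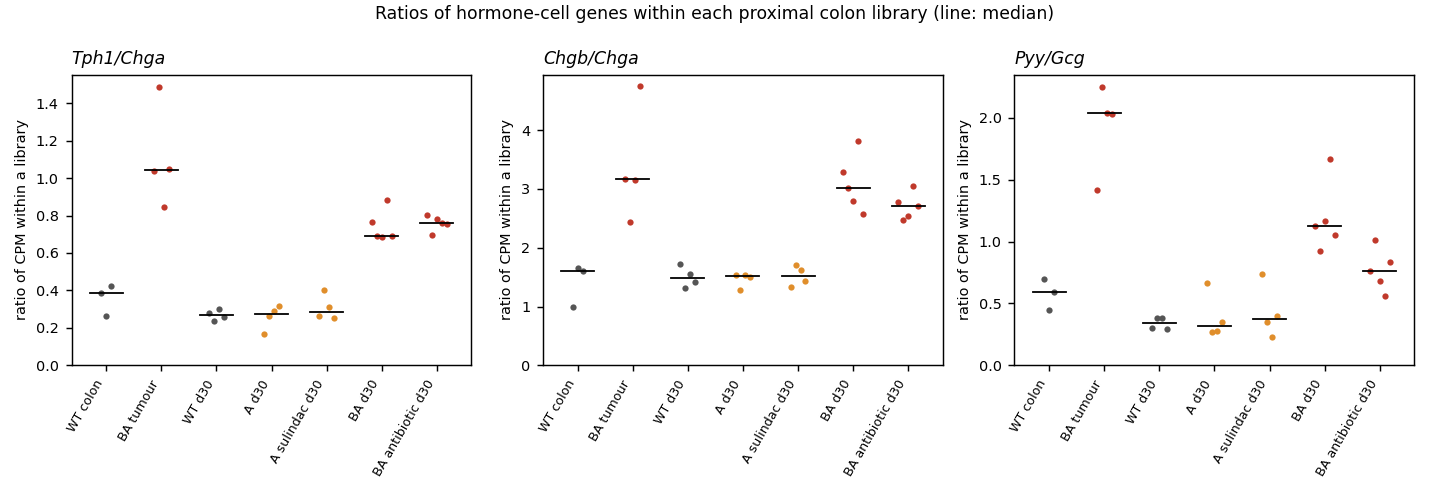
Ratios of CPM within each proximal colon library for Tph1 to Chga, Chgb to Chga and Pyy to Gcg, by group (a point is a library and a line the group median). BA libraries at day 30, with or without antibiotics, and BA tumours lie above their own WT for all 3 ratios.

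Whether the tumour change differed from the day 30 change was tested directly, each against its own WT. Of 9 members tested 7 had a lower effect in the tumours, where 16.3% of 20637 genes differed (6.46% lower in tumours). The difference in log2 change was -3.47 ± 0.40 for Pyy (adjusted p = 9.3e-05), -3.81 ± 0.43 for Sct (adjusted p = 8.6e-05), -3.24 ± 0.36 for Gcg (adjusted p = 7.1e-05), -2.60 ± 0.65 for Tph1 (adjusted p = 0.0120) and -2.54 ± 0.60 for Chga (adjusted p = 0.00899). Chgb (-2.17, adjusted p = 0.0299) and Neurod1 (-2.30, adjusted p = 0.0342) passed by less, and both lost their call without any 1 of several libraries (7 for Chgb and 11 for Neurod1). Cck (-0.59 ± 0.65) and Insl5 (-3.94 ± 1.58, adjusted p = 0.1006) did not pass. The sexes of the WT animals differed between the pairs, as described above. Levels in the 2 sets of WT differed too. Mean Pyy was 43.1 CPM in WT colon and 14.0 in WT at day 30, and mean Tph1 was 44.4 and 18.8. Gcg (70.8 and 42.4), Sct (77.8 and 48.1) and Chga (116 and 70.5) were also higher in WT colon. The part of this gap in the differences was not tested.

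Acute loss of Apc in the small intestine was followed at day 4. Of 9 members tested 6 fell and 0 rose in APCfl/fl, where 54.2% of 17536 genes were called and 26.7% were called lower. The median change of the 9 was -1.17, beside -0.00036 over all genes. Insl5 was too low to be tested.

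Gip, the hormone of K cells, stood at 65.5, 76.4 and 100.4 CPM (lowest, median and highest of 6) in WT and at 11.9, 22.2 and 38.6 in the 10 APCfl/fl libraries. The groups did not overlap, as for 5.26% of all genes in this direction, and Gip fell by 1.99 ± 0.24 (adjusted p = 6.4e-06). Gcg stood at 14.6, 21.4 and 40.6 CPM in WT and 4.41, 6.24 and 21.3 in APCfl/fl (-2.06 ± 0.28, adjusted p = 1.6e-05), the highest value being that of library 1, which rests on 11 reads. Chga, at 65.5, 89.7 and 149.6 CPM against 19.9, 41.4 and 57.6, did not overlap either (-1.47 ± 0.16, adjusted p = 2.3e-06).

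Chgb stood at 152.9, 174.4 and 242 CPM in WT and at 22.9, 121 and 144 in APCfl/fl (-1.02 ± 0.21, adjusted p = 0.000698). Tph1 fell from 15.3, 22.7 and 25.7 CPM to 6.60, 10.8 and 19.3 (-1.17 ± 0.18, adjusted p = 3.8e-05). Cck stood at 26.8, 43.2 and 54.9 CPM in WT and at 5.80, 12.1 and 44.0 in APCfl/fl (-1.58 ± 0.39, adjusted p = 0.00272). The highest Tph1 and the lowest Cck of APCfl/fl were those of library 1, where they rest on 10 and 3 reads. APCfl/fl library 8 carried the highest Cck, Gip and Sct and the lowest Chga, Chgb, Neurod1 and Tph1 of its group.

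That library also decided Sct. With it Sct, at 23.1, 29.2 and 43.4 CPM in WT and 17.9, 20.4 and 49.6 in APCfl/fl, did not pass (-0.58 ± 0.27, adjusted p = 0.0727). Without it the other 9 libraries lay at 17.9–21.9 CPM and Sct passed (-0.91, adjusted p = 3.4e-06), as 1 of 7 members called. Neurod1 (-0.57 ± 0.25, adjusted p = 0.0616) passed without APCfl/fl 6 or 10 or WT 5 (adjusted p from 0.0121 to 0.0497). Pyy, at 3–30 reads a library in WT, did not pass (-0.26 ± 0.52, adjusted p = 0.697). With sex as a term the same 6 members passed.

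Of 17 transcription factors 5 rose and 3 fell, with a median of -0.11, which is 8 of 17 beside 54.2% of all genes. Neurog3, which starts the endocrine programme, rose by 1.45 (4.45–11.6 CPM against 1.602–3.39), and Foxa1 (1.74) and Foxa2 (1.27) rose as well, while Isl1 (-1.69), Lmx1a (-1.09) and Pax6 (-1.05), factors of later differentiation, fell. Of 7 sensors 6 fell, with Ffar1 (-2.21), Ffar3 (-2.20) and Sstr5 (-1.72) lowest, and Ffar4 (0.76) rose. Of the prohormone processing and granule genes 8 of 12 fell, and of the further peptides 4 of 8 fell, among them somatostatin (Sst, -1.59) and ghrelin (Ghrl, -1.13). Slc6a4 (-1.79) fell and Gch1 (0.65) rose. Of the markers of other epithelial cells, 5 of 8 goblet, 5 of 6 tuft and 7 of 7 small intestinal genes fell and 1 goblet gene, Spdef (0.47), rose. Lower as well were 6 of 9 enteric neuron markers (median -0.96), 3 of 4 glia markers and 4 of 8 immune markers. The 10 general epithelial markers gave 1 higher, 3 lower and a median of -0.16. The part of these lists in the members' values was not tested.

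Apcfl/+ tumours were compared with WT small intestine. Of 9 members tested 6 fell and 1 rose, where 61.5% of 20567 genes were called. The share called lower over all genes is not given here, so the count itself is no result about the members. The median change of the 9 was -1.59, beside 0.03 over all genes. Because the library labelled Apcfl/+ tumour 2 went against its tissue label, the members' fold changes are given with and without it. Values of each library and list sums include it.

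Gcg stood at 14.6, 21.1 and 23.6 CPM in WT 1 to 3 and at 2.26, 4.90, 4.01, 1.48 and 0.573 in tumours 1 to 5 (-2.94 ± 0.52, adjusted p = 0.00146). Without tumour 2 the change was -3.22 (adjusted p = 0.000501). Chga stood at 54.0, 45.8 and 70.8 CPM in WT and at 16.5, 14.8, 26.8, 20.3 and 32.4 in the tumours (-1.35 ± 0.27, adjusted p = 0.00287), or -1.21 (adjusted p = 0.00117) without tumour 2. Chgb, at 90.4, 85.9 and 125 CPM against 33.6, 22.6, 45.8, 37.8 and 66.0, fell likewise (-1.27 ± 0.31, adjusted p = 0.00735), or by 1.10 (adjusted p = 0.00181) without it. None of these 3 genes overlapped between the groups, as for 27.4% of all genes in this direction.

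Pyy was the member that rose. It stood at 0.698, 1.02 and 0.707 CPM in WT and at 1.44, 27.8, 2.53, 2.64 and 5.12 in the tumours (3.17 ± 1.03, adjusted p = 0.0252). Without tumour 2 the rise was 1.89 ± 0.43 (adjusted p = 0.00406), from 13–19 reads a library in WT to 30–143 in the other 4 tumours. With all 5 tumours, Pyy lost its call without WT 1, 2 or 3 (adjusted p from 0.0613 to 0.0802). The same library had 117 reads of Insl5, where the other 4 tumours and the 3 WT had 0 or 1.

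Gip, Sct and Cck had their lowest values of the comparison in that library. Of these, Sct was not confined to small intestine, being the highest member in WT colon at day 30 (74.6 CPM per kb). Gip had 1 read there, against 222–731 in the other tumours and 658–1233 in WT, and did not pass with it (-1.76 ± 0.90, adjusted p = 0.117) but did without it (-1.44 ± 0.28, adjusted p = 0.00183). Sct stood at 0.599 CPM there, 4.03–8.77 in the others and 12.2–19.4 in WT (-1.70 ± 0.60, adjusted p = 0.0345; without it -1.40 ± 0.25, adjusted p = 0.00105). Cck stood at 0.763 CPM there, 5.71–10.04 in the others and 15.8–27.5 in WT (-1.59 ± 0.60, adjusted p = 0.0451, or -1.30 ± 0.22, adjusted p = 0.000794, without it). Each lost its call in 6 of the 8 fits that left out 1 library. For Sct these were the fits without WT 1, 2 or 3 or tumour 1, 3 or 4 (adjusted p from 0.0512 to 0.0975), and for Cck those without WT 1, 2 or 3 or tumour 1, 4 or 5 (adjusted p from 0.0575 to 0.142). Neurod1 fell with it (-2.02 ± 0.37, adjusted p = 0.00171) and without it (-1.90, adjusted p = 0.00152). Tph1, at 10.5–21.4 CPM in WT and 4.25–14.3 in the tumours, did not pass with tumour 2 (-0.92 ± 0.38, adjusted p = 0.0608) or without it (-0.73, adjusted p = 0.0527), but did without tumour 5 (-1.23, adjusted p = 0.0108) and with DESeq2 (adjusted p = 0.0164).

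The count of 7 called members rose to 8 without tumour 2 and dropped to 4 without any 1 of the 3 WT libraries. All WT libraries had Ddx3y and 4 of 5 tumours lacked it. With sex as a term, where tumour 1 alone carries the comparison, 1 member passed (Chga, -1.73, adjusted p = 0.0321), with Gcg at -3.07 (adjusted p = 0.0597) and Pyy at 0.88 (adjusted p = 0.616). Stromal markers were higher in the tumours (5 of 6, median 1.19) and the epithelial list gave 4 higher and 1 lower (median 0.24). Of 7 small intestinal markers 3 were lower (median -1.33), and 5 were lower and 1 higher without tumour 2. Lower too were 3 of 4 glia, 3 of 8 muscle and 3 of 8 immune markers. Neuronal markers gave 4 lower and 1 higher of 10, and goblet markers 4 lower and 3 higher of 8. Of 6 tuft markers 2 were higher (summed 168–355 CPM against 44.2–63.3). Their part in the members' values was not tested.

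Among the genes around them, Nts (-3.85), Nmu (-3.45) and Ucn3 (-2.14) fell, as did 6 of 9 further peptides in all. Of 10 hormone receptors 1 rose and 3 fell, with Npy2r up by 4.46 (2.02–17.5 CPM against 0.349–0.544) and Sctr (-1.72), Gcgr (-1.20) and Htr3a (-1.03) lower. Of 8 sensors 2 rose and 3 fell, among them Ffar4 (2.01) and Ffar1 (-3.43), both being receptors of long-chain fatty acids. Of 12 prohormone processing and granule genes 2 rose, Pam (1.47) and Ptprn (0.60), and 5 fell, led by Vwa5b2 (-2.07), Pcsk2 (-1.88) and Scg2 (-1.70). Of 14 transcription factors Foxa1 (2.05) and Foxa2 (2.35) rose, while 5 fell, among them Lmx1a (-1.82), Pax6 (-1.61) and Nkx2-2 (-1.41). In the serotonin pathway Gch1 (1.93), Trpa1 (2.13) and Slc18a1 (0.83) rose and Slc6a4 (-2.56), Maoa (-2.27) and Ddc (-1.44) fell. Without tumour 2 the genes named here kept their direction and their calls, with 2 higher and 8 lower of 15 transcription factors, 2 higher and 4 lower of 10 receptors and 2 higher and 6 lower of 12 granule genes. With 61.5% of all genes called in the main fit, the counts of these lists are descriptions only.

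**Figure D5:**
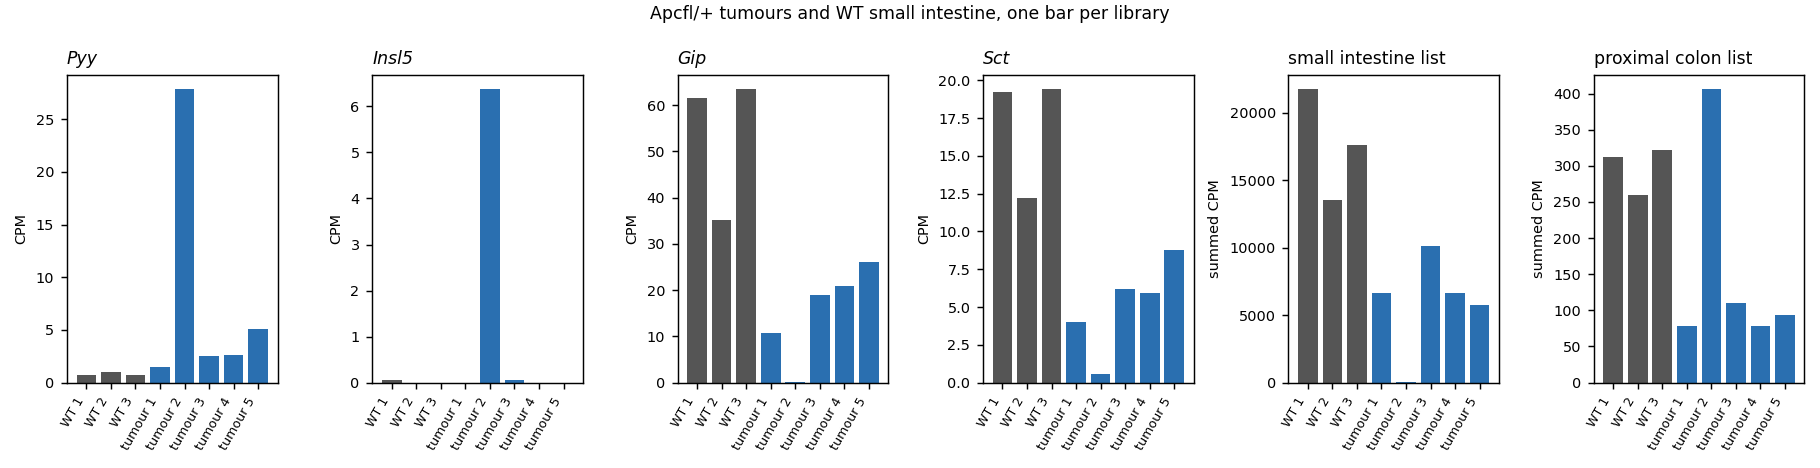
CPM of Pyy, Insl5, Gip and Sct, and the summed CPM of the small intestinal and the proximal colon markers, in the 3 WT small intestinal libraries and the 5 Apcfl/+ tumours (a bar is a library). The library labelled Apcfl/+ tumour 2 has the highest Pyy, Insl5 and colon sum and the lowest Gip, Sct and small intestinal sum.

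The 2 kinds of tumour were then compared through their effects, each against its own WT. Of 10 members tested 3 differed, where 39.7% of 21668 genes did (17.7% lower in BA tumours). The count itself is thus no result about the members. The difference in Pyy was -5.48 ± 1.13 (adjusted p = 0.00248), and -4.35 (adjusted p = 0.000214) with both tumours numbered 2 left out, a choice made after seeing the data. The difference in Sct was -2.61 ± 0.81 (adjusted p = 0.0207), and -3.32 (adjusted p = 0.00018) without them. Insl5 differed through the library labelled Apcfl/+ tumour 2 (-11.09 with it, -4.91 and adjusted p = 0.174 with both left out). Chga did not pass (-1.68 ± 0.69, adjusted p = 0.0660) but did with both left out (-1.65, adjusted p = 0.0303). Gip, whose reads in the BA tumours were nearly all from tumour 2, did not pass (7.00 ± 2.87, adjusted p = 0.0646). Gip passed without BA tumour 3 or 4 or Apcfl/+ tumour 2 (adjusted p = 0.0482, 0.0499 and 0.0331), and stood at 1.75 (adjusted p = 0.815) without BA tumour 2 and at 1.43 (adjusted p = 0.620) with both tumours numbered 2 left out. Gcg (-0.97 ± 0.66), Chgb (-0.33 ± 0.71), Cck (1.05 ± 0.87), Tph1 (-0.68 ± 0.77) and Neurod1 (-0.41 ± 0.79) did not pass. Tissue, strain background and kind of tumour go together in this comparison. The sex marker Ddx3y ran in opposite directions in the pairs. It was over 10 CPM in 3 of 4 BA tumours and 0 of 3 of their WT, but in 1 of 5 Apcfl/+ tumours and 3 of 3 of their WT. The part of sex in these differences was not tested.

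Between Apcfl/+ tumours and acute Apc loss, 2 of 9 members differed in their effect, where 24.7% of 22202 genes did. That share is near the background and is no result about the members. Pyy differed by 3.37 ± 1.04 (adjusted p = 0.0205) and Neurod1 by -1.49 ± 0.48 (adjusted p = 0.0253). Without the library labelled Apcfl/+ tumour 2 the difference in Pyy was 2.08 (adjusted p = 0.0577), and Pyy also lost its call without WT small intestine 1 or 3. Neurod1 lost its call without WT small intestine 3 (adjusted p = 0.117) or Apcfl/+ tumour 4 (adjusted p = 0.0511). The other 7 did not pass, with differences from -1.13 (Sct) to 0.23 (Tph1).

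Within groups, the members did not vary as a single block. Over the 29 proximal colon libraries, after each group's mean was subtracted, log2 levels of Chga moved with those of Chgb (Spearman's rho 0.940) and Tph1 (0.888), and with Gcg less closely (0.535). Sct stood apart, at -0.253 with Chga and -0.337 with Tph1. Over the 24 small intestinal libraries Chga and Chgb were again the closest pair (0.880), followed by Sct and Gip (0.756), while Pyy and Cck ran opposite (-0.526). The libraries share their depth scaling, and these values are descriptions.

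Likeness to other genes was taken from the same deviations over 16302 genes in the colon, but by Pearson's r. This measure is more open to a single extreme library: Chga with Neurod1 gave 0.696 by r and 0.432 by rho. The genes outside the list most like Chga were Pcsk1 (Pearson's r 0.919), Sytl4 (0.915) and 5330417C22Rik (0.910). Those most like Tph1 were Pcsk1 (0.926), Klhdc8a (0.926) and Rgs17 (0.922), and those most like Chgb were 5330417C22Rik (0.926), Tmco3 (0.921) and Atp2a3 (0.920). Neurod1 was most like Slc10a7 (0.878), Gcg most like Tfb1m (0.849), Pyy most like H13 (0.781), Sct most like CT033749.1 (0.766) and Cck most like Camk2n2 (0.709). Insl5 and Gip were too low for this measure.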

How the data were processed

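RNA-seq libraries were prepared by the authors from 53 tissue or tumour samples (TruSeq RNA, paired-end on a NextSeq 500). Reads were checked with FastQC 0.11.8, trimmed with Trim Galore 0.6.4, aligned with HISAT2 2.1.0 to GRCm38 and counted per gene with featureCounts 1.6.4. The authors deposited raw counts, in whole reads, with no normalisation; whether counting used strand is not given in the sources used here. Symbols were matched for 55154 of 55421 Ensembl identifiers. Columns were tied to samples by their titles, and no column was left over.

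Each comparison was fitted on its own groups (interactions on all 4) with edgeR 4.0.16 in R 4.3.3 (filterByExpr, TMM, two-sided quasi-likelihood F test, Benjamini-Hochberg threshold 0.05), a procedure tested on simulated data. CPM were counts over the library total. DESeq2 1.42.0, RLE size factors, no filter, a replicate block and leaving out each library were alternatives; a sex term and leaving out both tumours numbered 2 were added after seeing the data. Replicate numbers were not taken as pairs in the main fits. In no comparison did every pair correlate over 0.1, though 2 of 4 did for A against WT. With so few libraries a group, this check cannot exclude pairing or a shared preparation. Replicates were separate animals according to the study's reporting statement.

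The members and the 18 further gene lists were chosen with earlier results of these data known. Genes named from a list were among its 3 largest called changes in each direction. RefSeq start sites and sequences came from GRCm38.p6. Figures used Python 3.11.15 and matplotlib 3.10.9.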

Additional observations from a re-analysis of the deposited data

Results flagged for a closer look

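Of 77 sets of libraries of a group tested for a single value far from the rest, 15 held one. The rule's rate of about 1 in 20 holds for independent sets with a normal spread. CPM were not transformed here and several members vary together, so that rate is no baseline for these sets. In CPM, they were the following. Chgb was high in A with sulindac 2 (169.2) and in BA day 30 library 4 (207.5), and low in APCfl/fl 8 (22.9). Tph1 was high in the same A with sulindac 2 (39.6) and BA day 30 library 4 (47.9), and in A day 30 library 4 (36.3). Gcg (7.63) and Pyy (10.8) were high in BA tumour 1, and Gcg was high in APCfl/fl 1 (21.3), where it rests on 11 reads. Pyy was high in WT day 30 library 1 (19.6) and in the library labelled Apcfl/+ tumour 2 (27.8). Cck (44.0) and Sct (49.6) were high in APCfl/fl 8, and Sct was high in antibiotic-treated BA library 2 (58.3) and WT day 4 library 6 (43.4).

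By edgeR's test of the difference between effects, 12 results differed between settings, each a difference in log2 change. Between BA tumours and BA tissue at day 30 the effect was lower in the tumours for Chga (-2.54), Chgb (-2.17), Gcg (-3.24), Pyy (-3.47), Sct (-3.81), Tph1 (-2.60) and Neurod1 (-2.30). Between BA and Apcfl/+ tumours it was lower in BA for Pyy (-5.48), Sct (-2.61) and Insl5 (-11.09). As described above, the value of Insl5 came through the library labelled Apcfl/+ tumour 2, and it was -5.12 without that library. Between Apcfl/+ tumours and APCfl/fl tissue it was higher in the tumours for Pyy (3.37) and lower for Neurod1 (-1.49).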

How the results depend on the processing

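With another normalisation (RLE) or DESeq2 the counts of called members stayed within 1.5 times the main count in all 13 comparisons. Without the filter on low counts, the BA against Apcfl/+ tumour effect gave 5 members instead of 3. With a sex term, 1 member was called in BA tumours (main 6) and 1 in Apcfl/+ tumours (main 7). Leaving out each library gave 4 to 7 members for BA tumours, 4 to 8 for Apcfl/+ tumours, 1 to 2 for antibiotics against BA and 0 to 2 for the Apcfl/+ against APCfl/fl effect. With the replicate block the counts were 7 for BA tumours (Chgb -2.12 and Tph1 -1.56 gained, Neurod1 -2.89 lost), 5 for BA at day 30 (2 lower and 3 higher, with Chgb 0.66 gained and Chga -0.44 lost; 3 lower and 2 higher without the block), 0 for A, 0 for sulindac against WT, 3 for antibiotics against WT, 8 for APCfl/fl, 8 for Apcfl/+ tumours, 5 for BA against A, 2 for antibiotics against BA and 0 for sulindac against A. Over all genes, BA tumours gave 2527 calls, 848 with the block, 168 with the sex term and 3798 with DESeq2; A gave 25 against 136 with DESeq2, and sulindac against WT 9 against 110 with DESeq2 and 2 with the block. Sulindac against A gave 0, 5 with DESeq2 and 1 with the block. Apcfl/+ tumours gave 12650, 8211 with the block and 7030 with the sex term, and antibiotics against BA 2172 and 1284 with the block. In no comparison did every sample correlate best with its own number. The cause was not tested.

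The results that changed sign were none of them called. With the block, Tph1 in A was -0.0549; with the sex term, Pyy in APCfl/fl was 0.18; for the Apcfl/+ against APCfl/fl effect, Chga was -0.0580 with RLE and -0.0578 with DESeq2, and Cck 0.0328 without the filter. Leaving out 1 library moved log2 changes over these ranges. For BA at day 30 against WT they were Neurod1 -0.37 to 0.0091 and Cck -0.42 to 0.19. For A against WT they were Gcg -0.20 to 0.20, Chgb -0.31 to 0.29, Tph1 -0.45 to 0.26, Pyy -0.19 to 0.34 and Chga -0.25 to 0.24. For sulindac-treated A against WT they were Gcg -0.32 to 0.34, Chgb -0.46 to 0.19, Tph1 -0.36 to 0.36, Sct -0.12 to 0.28 and Chga -0.39 to 0.0662. For antibiotic-treated BA against WT they were Gcg -0.31 to 0.0843, Neurod1 -0.18 to 0.0586, Chgb -0.0195 to 0.44, Sct -0.0842 to 0.14 and Cck -0.0639 to 0.17. For APCfl/fl against WT they were Pyy -0.50 to 0.12. For antibiotic-treated against untreated BA they were Neurod1 -0.0650 to 0.33, Cck -0.16 to 0.45 and Pyy -0.26 to 0.0611. For sulindac-treated against untreated A they were Gcg -0.22 to 0.33, Neurod1 -0.27 to 0.15, Chgb -0.45 to 0.20, Tph1 -0.39 to 0.57, Pyy -0.13 to 0.38 and Chga -0.42 to 0.12. For the Apcfl/+ against APCfl/fl effect they were Tph1 -0.19 to 0.51, Cck -0.24 to 0.43, Gip -0.18 to 0.53 and Chga -0.20 to 0.25.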
